A study of Mus musculus with 10 samples.

Results

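The genes described here are 44 mouse genes that act at mitotic entry, in the spindle checkpoint, at the kinetochore, on the spindle and in cytokinesis. The kinesin family was left out apart from the kinetochore motor Cenpe. The 44 genes were chosen by symbol and function, and all had a row of their own among the 55421 genes of the count table and passed the filter on low counts. RNA was sequenced from germinal center B cells, the B cells that divide, mutate their antibody genes and are selected after immunization. The cells came from spleens of C57BL/6 mice of 8 to 10 weeks, 10 days after immunization, and were isolated with magnetic beads for the lectin PNA. The groups were HOMO CC (Pbrm1-/-, n = 2 libraries), WT CC (Pbrm1+/+, n = 3), HOMO CB (Pbrm1-/-, n = 2) and WT CB (Pbrm1+/+, n = 3). What CB and CC stand for is not written in the labels, and the study's title names centrocytes, the germinal center B cells that undergo selection. Pbrm1 encodes a bromodomain subunit of the PBAF chromatin remodelling complex. The labels name neither the construction of the allele nor a driver that would restrict its loss to a cell type, and the immunogen is not named either. Headers of the count columns begin with Pbrm1AID in both genotypes, and the labels do not explain what AID stands for there. Nothing in them says that libraries of a group came from separate animals, so p-values measure the spread between libraries, which may be technical in part.

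Cells enter mitosis when cyclin B bound to Cdk1 is freed of inhibitory phosphates by Cdc25 phosphatases, with Polo and Aurora kinases reinforcing the step. Kinetochores then attach the chromosomes to the spindle, and the spindle checkpoint holds the anaphase-promoting complex (APC/C) in check until all are attached. Transcripts of most of these genes accumulate late in the cell cycle, in G2 and mitosis. In the germinal center, dividing centroblasts of the dark zone are the cells in which these genes are known to be high, and they are lower in centrocytes of the light zone.

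Total counts were 15514361 and 9954006 in HOMO CC, 27091509, 19946853 and 13662538 in WT CC, 27034386 and 67625110 in HOMO CB, and 26372234, 30412732 and 61627968 in WT CB. Levels are CPM, a gene's count relative to the library total, scaled by TMM factors. Pbrm1 itself had 152 and 150.4 CPM in HOMO CC, against 239, 239 and 250.3 CPM in WT CC, and 178 and 164 CPM in HOMO CB, against 319, 309 and 312 CPM in WT CB. It was lower in every HOMO library, by a log2 change of -0.68 in CC (SE 0.087, edgeR adjusted p = 0.0564) and -0.88 in CB (SE 0.087, adjusted p = 0.00954), and was not absent. B cell and germinal center markers were at 4811 to 6683 CPM in sum in all 10 libraries. In both genotypes the CC libraries had less Cxcr4 and more Cd83 and Cd86 than the CB libraries, genes known for the dark zone (Cxcr4) and the light zone (Cd83, Cd86). The sum of 11 macrophage markers was 33.5 and 28.9 CPM in HOMO CC, against 808, 197 and 50.3 CPM in WT CC, and 10.1 to 24.9 CPM in CB libraries. None of the 11 was at 0 in all libraries. Neutrophil markers summed to 129.7 CPM in HOMO CC 2 and 160 CPM in HOMO CB 2. They summed to 14.6 CPM in HOMO CC 3, 7.8 CPM in HOMO CB 3, 15.02 CPM in WT CC 3 and 14.3 CPM in WT CB 3. WT libraries numbered 1 and 2 had at most 0.95 CPM. Markers of plasma cells summed to 428 and 414 CPM in HOMO CC, against 840.3 and 782 CPM in HOMO CB, and to 293, 318 and 515 CPM in WT CC, against 647, 686.5 and 724 CPM in WT CB. Jchain was the largest part of each sum and, with Xbp1, was lower in CC. Irf4 and Prdm1 went the other way, with Irf4 at 88.6 and 97.9 CPM in HOMO CC, against 48.1 and 50.3 CPM in HOMO CB. In WT both were higher in CC for each number, with overlap between numbers. Sdc1 and Tnfrsf17 were at most 2.97 CPM. Erythroid markers reached 67.8 CPM in WT CC 1 and at most 15.02 CPM elsewhere. T cell markers summed to 11.6 and 8.35 CPM in HOMO CC, and to 6.2, 6.89 and 13.8 CPM in WT CC. In CB they summed to 4.76 and 4.71 CPM in HOMO, and to 1.02, 2.37 and 6.74 CPM in WT. The part of these other cells in the results that follow was not tested beyond the libraries left out there.

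Mitotic transcripts were lower in CC than in CB in both genotypes. The 44 genes together made up 7877 and 8054 CPM in HOMO CC, against 12794 and 13654 CPM in HOMO CB. In WT they made up 7520, 7112 and 7132 CPM in CC, against 13263, 13405 and 11325 CPM in CB. The CC and CB sums did not overlap in either genotype. With edgeR's quasi-likelihood test at an adjusted p under 0.05, 33 of the 44 fell in CC of HOMO, where 2.98% of the 16596 genes tested were called lower and 2.46% higher. In WT, 43 of the 44 fell, where 12.3% of all genes tested were called lower and 11.6% higher. None was called higher in either genotype, and all 44 estimates lay below 0 in both. In bulk samples such as these, fewer cells in mitosis and less of these RNAs per cell cannot be told apart.

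The median log2 change of the 44 genes was -0.78 in HOMO (lowest -1.41, highest -0.14), beside -0.01 over all genes tested. In WT it was -0.98 (lowest -1.77, highest -0.38), beside 0.0097 over all genes tested. Every CC library lay below every CB library for 43 of the 44 in HOMO, where 33.2% of all genes tested did so. The exception there was Pttg1. In WT, 43 of the 44 did so as well, where 17.9% of all genes tested did, and the exception was Aurkb. The 33 genes called in HOMO were all among the 43 called in WT. The 10 called in WT but not in HOMO were Anln, Aurkb, Birc5, Cks1b, Cks2, Dlgap5, Gtse1, Hjurp, Ndc80 and Tacc3, and a difference between the genotypes is not shown by that (the interaction is given further on). Leaving out 1 HOMO library, which leaves 1 in its group, cut the HOMO count most, and cut the count over all genes tested too. The HOMO median was then -0.71 without HOMO CB library 3, -0.72 without HOMO CC library 2, -0.82 without HOMO CC library 3 and -0.86 without HOMO CB library 2. The HOMO count was 42 in the fit that pairs the WT libraries by a replicate block, where 1249 of 16596 genes tested were called lower (495 in the main fit). It was 43 without both WT libraries numbered 3, where 2091 of 16088 were. With WT CC libraries 1 and 2 left out, which held the most macrophage RNA, 1 WT CC library remained. The WT median was then -0.97, against -0.98 with them.

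**Figure D1:**
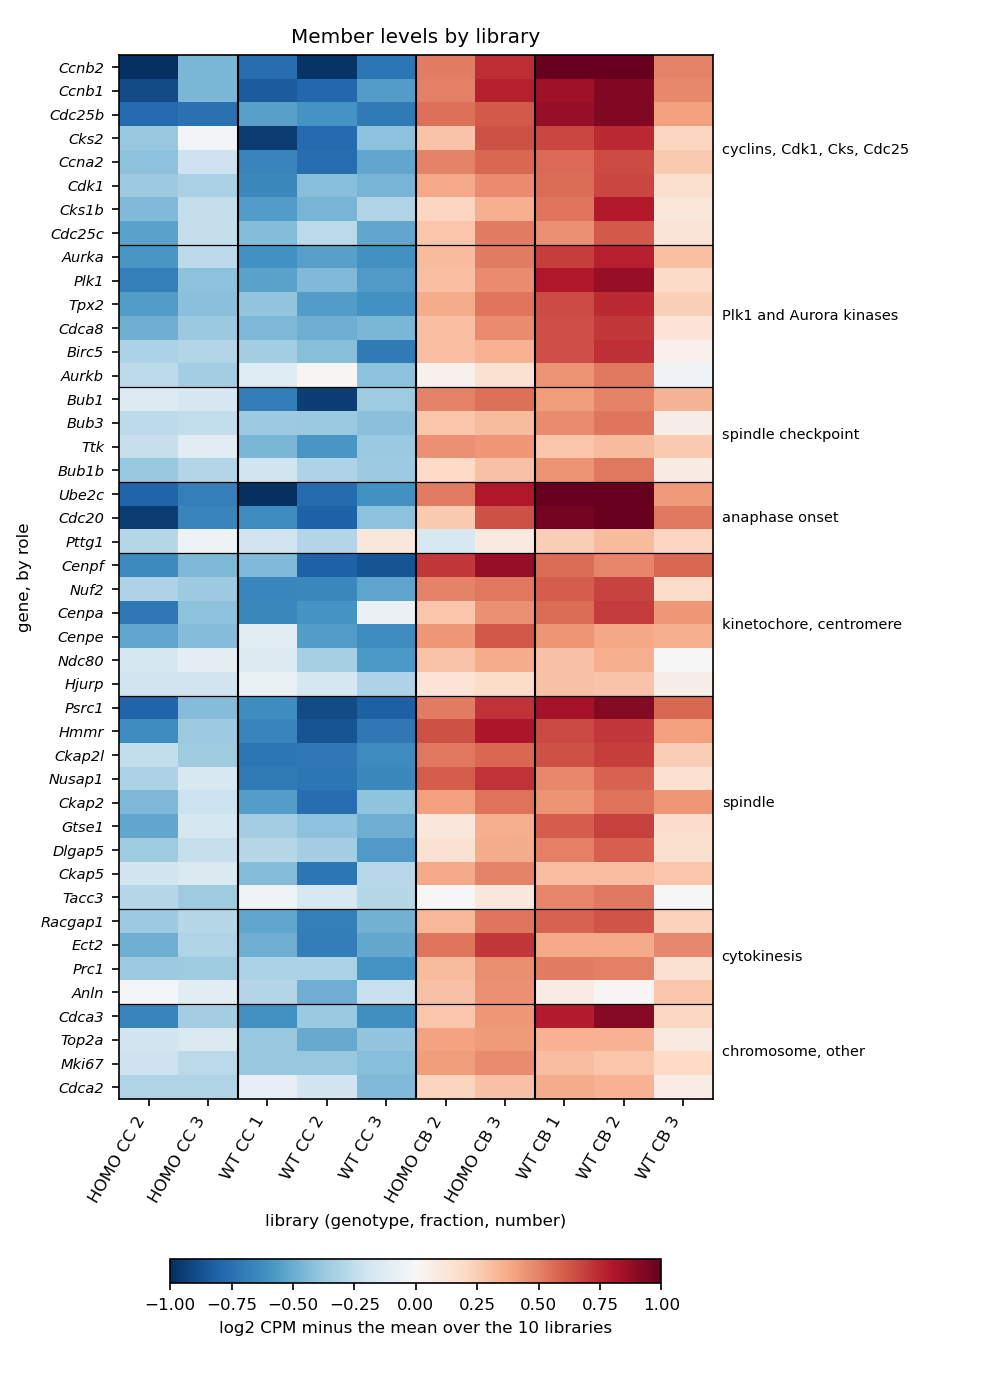
Level of each of the 44 genes (rows, by role) in each of the 10 libraries (columns), as log2 CPM minus the gene's mean over all libraries, blue for below and red for above, with the deepest shades for 1 log2 unit or more. The CC columns on the left are blue for nearly all genes and the CB columns red, and WT CB 3 is paler than WT CB 1 and WT CB 2.

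Cyclins and the other regulators of Cdk1 all fell in WT (8 of 8, median log2 change -1.20), and 6 of 8 fell in HOMO (median -0.81). Cdc25b, a phosphatase that activates Cdk1, had 146 and 149.5 CPM in HOMO CC, against 368 and 384 CPM in HOMO CB. In WT it had 173, 165 and 154 CPM in CC, against 459.8, 476 and 333 CPM in CB. Fractions did not overlap in either genotype, and the log2 change was -1.35 in HOMO (SE 0.15, edgeR adjusted p = 0.000788) and -1.37 in WT (SE 0.13, adjusted p = 6.8e-05), so CC held 0.393 and 0.388 of the CB level. Ccna2, the cyclin of S and G2 phase, had 143 and 164 CPM in HOMO CC, against 267 and 283 CPM in HOMO CB. WT CC libraries had 120.1, 112 and 133 CPM, against 281, 298 and 227 CPM in WT CB. Its fractions did not overlap either, with log2 changes of -0.84 in HOMO (SE 0.14, edgeR adjusted p = 0.00619) and -1.14 in WT (SE 0.12, adjusted p = 0.00012).

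The B-type cyclins, the partners of Cdk1 in mitosis, fell in both genotypes. Ccnb2 averaged 40.5 ± 10.6 CPM in HOMO CC and 102 ± 11.2 CPM in HOMO CB (SD, n = 2 each), and 37.4 ± 3.54 CPM in WT CC and 124 ± 27.4 CPM in WT CB (SD, n = 3 each). Ccnb1 averaged 45.1 ± 9.56 CPM in HOMO CC and 112 ± 15.1 CPM in HOMO CB, and 43.3 ± 4.55 CPM in WT CC and 121 ± 18.9 CPM in WT CB. Log2 changes were -1.34 in HOMO and -1.74 in WT for Ccnb2, and -1.31 and -1.48 for Ccnb1, and all passed. Cdk1, the kinase itself, averaged 70.8 CPM in HOMO CC and 121 in HOMO CB, and 63.1 in WT CC and 125 in WT CB. The small Cdk-binding proteins differed in call between genotypes. Cks2 averaged 23.1 CPM in HOMO CC and 36.7 in HOMO CB, a log2 change of -0.67 that did not pass (edgeR adjusted p = 0.118). In WT it fell, with 16.3 CPM in CC and 39.1 CPM in CB (log2 change -1.26). Cks1b had estimates of -0.63 in HOMO (edgeR adjusted p = 0.0888) and -0.94 in WT (adjusted p = 0.002), at 34 CPM in HOMO CC and 52.3 in HOMO CB, and 31.7 in WT CC and 61 in WT CB. Cdc25c, another Cdk1 phosphatase, fell in both, to 27 CPM in HOMO CC, against 46.3 in HOMO CB, and to 26.6 CPM in WT CC, against 46.7 in WT CB.

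Polo and Aurora kinases and their partners fell for 6 of 6 genes in WT (median log2 change -1.03) and for 4 of 6 in HOMO (median -0.83). Aurka, the kinase of centrosomes and spindle poles, had 33.1 and 41.4 CPM in HOMO CC, against 62 and 71.3 CPM in HOMO CB. Its WT levels were 32.7, 34.1 and 32.7 CPM in CC, against 80.1, 85.2 and 61.1 CPM in CB. The fractions were apart in both genotypes, with log2 changes of -0.84 in HOMO (SE 0.17, edgeR adjusted p = 0.0135) and -1.18 in WT (SE 0.14, adjusted p = 0.000226). Tpx2, the activator that targets Aurka to the spindle, had 129 and 142 CPM in HOMO CC, against 245 and 276 CPM in HOMO CB. In WT, Tpx2 had 145, 129 and 125 CPM in CC, against 299, 319 and 224 CPM in CB. It changed by -0.94 in HOMO (SE 0.16, edgeR adjusted p = 0.00615) and -1.08 in WT (SE 0.13, adjusted p = 0.000306), again with no overlap of the fractions. Plk1, the Polo kinase, averaged 64.6 ± 8.76 CPM in HOMO CC and 123 ± 10.3 in HOMO CB (SD, n = 2 each), and 65.8 ± 2.96 in WT CC and 147 ± 35 in WT CB (SD, n = 3 each), and passed in both.

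The chromosomal passenger complex, which corrects faulty attachments and directs cytokinesis, was uneven. Aurkb, its kinase, had 91.6 and 86.3 CPM in HOMO CC, against 113 and 122 CPM in HOMO CB, and 101, 112 and 82.8 CPM in WT CC, against 150.4, 159 and 107 CPM in WT CB. The WT fractions overlapped, since WT CC 2 lay above WT CB 3. The log2 change of Aurkb was -0.40 in HOMO (edgeR adjusted p = 0.258) and -0.50 in WT (adjusted p = 0.0333), and the WT call was lost in 9 of 24 alternative settings. Birc5 (survivin) averaged 60.2 CPM in HOMO CC and 93.1 in HOMO CB, with an estimate of -0.63 that did not pass (edgeR adjusted p = 0.0968). In WT it fell by 0.98 on the log2 scale, to 53.4 CPM in CC, against 106 in CB. Cdca8 (borealin) fell in both, with 71.8 CPM in HOMO CC and 126 in HOMO CB, and 70 CPM in WT CC and 138 in WT CB.

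All 4 spindle checkpoint genes fell in both genotypes, with a median log2 change of -0.59 in HOMO and -0.75 in WT. Ttk (Mps1), the kinase at the head of the checkpoint, had 44.4 and 48.6 CPM in HOMO CC, against 71.4 and 70.4 CPM in HOMO CB. In WT it had 38.1, 34.9 and 40.3 CPM in CC, against 63.2, 64.9 and 62.4 CPM in CB. Its libraries were tightly grouped and the fractions apart, with log2 changes of -0.61 in HOMO (SE 0.11, edgeR adjusted p = 0.00796) and -0.75 in WT (SE 0.089, adjusted p = 0.000271). Bub1, the kinase that recruits checkpoint proteins to kinetochores, had 86 and 84 CPM in HOMO CC, against 133 and 138 CPM in HOMO CB. WT CC libraries held 58.5, 49.2 and 73.8 CPM of Bub1, against 126, 133 and 119 CPM in WT CB. The fractions did not overlap, with log2 changes of -0.68 in HOMO (SE 0.16, edgeR adjusted p = 0.03) and -1.06 in WT (SE 0.13, adjusted p = 0.000307), and both HOMO CC libraries lay above all 3 WT CC libraries. Bub1b (BubR1) and Bub3, which bind and hold back Cdc20, also fell. Bub1b averaged 163 CPM in HOMO CC and 244 in HOMO CB, and 168 in WT CC and 266 in WT CB. Bub3 averaged 124 CPM in HOMO CC and 182 in HOMO CB, and 113 in WT CC and 191 in WT CB. The HOMO calls were lost in 4 (Ttk), 6 (Bub1), 8 (Bub1b) and 10 (Bub3) of 24 alternative settings, and the WT calls of these genes in none.

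The genes of anaphase onset held both ends of the range. Ube2c, the ubiquitin-conjugating enzyme that works with the APC/C, had 26.6 and 28.9 CPM in HOMO CC, against 66.4 and 80.5 CPM in HOMO CB. Its WT levels were 20.5, 27.2 and 30.3 CPM in CC, against 98.1, 106 and 62.1 CPM in CB. CC held 0.377 of the CB level in HOMO (log2 change -1.41, SE 0.25, edgeR adjusted p = 0.00824) and 0.293 in WT (-1.77, SE 0.20, adjusted p = 0.00026), the lowest estimate of the 44 in each genotype, with no overlap of the fractions. Cdc20, the APC/C activator that the checkpoint inhibits, had 50.7 and 61.9 CPM in HOMO CC, against 117 and 152 CPM in HOMO CB. In WT, Cdc20 had 63.2, 55.9 and 73.7 CPM in CC, against 189.7, 206 and 141 CPM in CB. Its fractions did not overlap in either genotype, with log2 changes of -1.26 in HOMO (SE 0.20, edgeR adjusted p = 0.00475) and -1.48 in WT (SE 0.17, adjusted p = 0.000191). Pttg1 (securin), the inhibitor of separase that the APC/C degrades, did not pass in either genotype. It had 8.54 and 10.1 CPM in HOMO CC, against 9.3 and 11.1 CPM in HOMO CB, which overlap. WT CC libraries had 9.08, 8.49 and 11.2 CPM, against 12.3, 13 and 12.1 CPM in WT CB, which do not overlap but lie close. Its log2 change was -0.14 in HOMO (SE 0.20, edgeR adjusted p = 0.782) and -0.38 in WT (SE 0.16, adjusted p = 0.108).

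Kinetochore and centromere genes fell for 6 of 6 in WT (median log2 change -0.89) and for 4 of 6 in HOMO (median -0.89). Cenpf, a large protein of the outer kinetochore, had 169.5 and 194 CPM in HOMO CC, against 432 and 484 CPM in HOMO CB. In WT it had 195, 151 and 145 CPM in CC, against 389.6, 369.7 and 394 CPM in CB. The fractions were far apart, with log2 changes of -1.34 in HOMO (SE 0.15, edgeR adjusted p = 0.000596) and -1.23 in WT (SE 0.12, adjusted p = 8e-05). Nuf2, part of the NDC80 complex that binds microtubules, had 72.6 and 70 CPM in HOMO CC, against 127 and 130.1 CPM in HOMO CB. WT libraries had 57.3, 57.5 and 62.4 CPM in CC, against 137, 144 and 102 CPM in CB. The log2 change of Nuf2 was -0.85 in HOMO (SE 0.15, edgeR adjusted p = 0.007) and -1.11 in WT (SE 0.12, adjusted p = 0.000178), with no overlap. Ndc80, its partner in the same complex, had smaller estimates of -0.47 in HOMO, which did not pass (edgeR adjusted p = 0.114), and -0.56 in WT. Its mean was 76.4 CPM in HOMO CC and 106 in HOMO CB, and 66.7 in WT CC and 98.7 in WT CB.

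Cenpe, a kinetochore motor that moves chromosomes to the spindle equator, averaged 303 ± 12.8 CPM in HOMO CC and 610.3 ± 57.4 in HOMO CB (SD, n = 2 each), and 317 ± 65.7 in WT CC and 557 ± 15.5 in WT CB (SD, n = 3 each). It is among the 5 genes with a lower estimate in HOMO (-1.01) than in WT (-0.81). Cenpa, the histone H3 variant that marks centromeres, fell in both, to 62.6 CPM in HOMO CC, against 119 in HOMO CB, and to 69.4 CPM in WT CC, against 137 in WT CB. Hjurp, the chaperone that deposits Cenpa, averaged 497 CPM in HOMO CC and 637 in HOMO CB, and 503 in WT CC and 663 in WT CB. Its log2 change was -0.36 in HOMO (edgeR adjusted p = 0.106, not passed) and -0.40 in WT (adjusted p = 0.0124), so chaperone and histone differed in the size of their estimates.

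Spindle genes fell for 9 of 9 in WT (median log2 change -1.04) and for 6 of 9 in HOMO (median -0.81). Hmmr, which acts at centrosomes and spindle poles, had 66.5 and 80 CPM in HOMO CC, against 159 and 180 CPM in HOMO CB. In WT it had 65, 56.5 and 62.4 CPM in CC, against 163, 168 and 137 CPM in CB. It had the smallest p of the 44 in WT, with log2 changes of -1.21 in HOMO (SE 0.14, edgeR adjusted p = 0.000812) and -1.34 in WT (SE 0.11, adjusted p = 4.7e-05) and fractions that did not overlap. Ckap2l, a protein of spindle poles, had 77.6 and 72.2 CPM in HOMO CC, against 133 and 137 CPM in HOMO CB. The WT levels of Ckap2l were 55.9, 56.1 and 59.5 CPM in CC, against 143, 149 and 109 CPM in CB. Fractions were apart, with log2 changes of -0.85 in HOMO (SE 0.14, edgeR adjusted p = 0.00567) and -1.23 in WT (SE 0.12, adjusted p = 7.44e-05).

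The other spindle genes spanned a wide range. Psrc1, a microtubule-associated protein with low counts here, averaged 7.33 CPM in HOMO CC and 17.2 in HOMO CB, and 6.52 in WT CC and 19.1 in WT CB (log2 change -1.24 in HOMO and -1.55 in WT). Nusap1, which bundles spindle microtubules, averaged 132 CPM in HOMO CC and 247 in HOMO CB, and 96.2 in WT CC and 208 in WT CB. Ckap2, related to Ckap2l, averaged 29.8 CPM in HOMO CC and 52.2 in HOMO CB, and 25.3 in WT CC and 52.1 in WT CB. All 3 passed in both genotypes, as did Ckap5, a microtubule polymerase, at 295 CPM in HOMO CC and 450.5 in HOMO CB, and 239.8 in WT CC and 408 in WT CB. Gtse1, Dlgap5 and Tacc3 passed in WT only, with the difference between genotypes not called. Gtse1, a microtubule-binding protein that also restrains p53, averaged 34.9 CPM in HOMO CC and 52.2 in HOMO CB (edgeR adjusted p = 0.0865), and 33.1 in WT CC and 62.7 in WT CB (adjusted p = 0.00153). Dlgap5, which stabilizes kinetochore fibres, averaged 68 CPM in HOMO CC and 100.1 in HOMO CB (edgeR adjusted p = 0.0636), and 63.4 in WT CC and 112 in WT CB (adjusted p = 0.00137). Tacc3, which joins Ckap5 on spindle microtubules, had estimates of -0.38 in HOMO (edgeR adjusted p = 0.233) and -0.52 in WT (adjusted p = 0.0164), at 84.1 CPM in HOMO CC and 109 in HOMO CB, and 94.1 in WT CC and 135 in WT CB.

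All 4 cytokinesis genes fell in WT (median log2 change -0.89), and 3 of 4 fell in HOMO (median -0.76). Ect2, the exchange factor that activates RhoA at the division plane, had 68.3 and 77.5 CPM in HOMO CC, against 139 and 156 CPM in HOMO CB. In WT it had 68.1, 59.3 and 67 CPM in CC, against 125, 125 and 134 CPM in CB. The fractions did not overlap, and the log2 changes were near each other, at -1.02 in HOMO (SE 0.12, edgeR adjusted p = 0.000812) and -0.98 in WT (SE 0.096, adjusted p = 8.72e-05). Racgap1, which with a kinesin forms centralspindlin and recruits Ect2, had 120.3 and 127 CPM in HOMO CC, against 195 and 224 CPM in HOMO CB. WT libraries held 108, 96.4 and 111 CPM in CC, against 233, 239 and 181 CPM in CB. Its fractions were apart too, with log2 changes of -0.76 in HOMO (SE 0.14, edgeR adjusted p = 0.0111) and -1.05 in WT (SE 0.12, adjusted p = 0.000201). Prc1, which crosslinks microtubules of the midzone, averaged 139 CPM in HOMO CC and 235 in HOMO CB, and 135 in WT CC and 236 in WT CB. Anln (anillin), a scaffold of the contractile ring, had estimates of -0.44 in HOMO (edgeR adjusted p = 0.0748, not passed) and -0.46 in WT (adjusted p = 0.00977). It averaged 97.2 CPM in HOMO CC and 132 in HOMO CB, and 80.5 in WT CC and 111 in WT CB.

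The 4 remaining genes, of chromosome structure and mitotic exit, fell in both genotypes (median log2 change -0.63 in HOMO and -0.67 in WT). Mki67, the Ki-67 protein that coats mitotic chromosomes, had 2820 and 2695 CPM in HOMO CC, against 4339 and 4512 CPM in HOMO CB. In WT it had 2501, 2505 and 2420 CPM in CC, against 4031, 3945 and 3731 CPM in CB. It took 29.4% to 35.8% of the summed CPM of the 44 genes in every library, and changed by -0.68 in HOMO (SE 0.1, edgeR adjusted p = 0.00291) and -0.66 in WT (SE 0.082, adjusted p = 0.000346), with no overlap of the fractions. Top2a, the topoisomerase that untangles sister chromatids, had 1066 and 1100 CPM in HOMO CC, against 1614 and 1639 CPM in HOMO CB. Its WT levels were 936, 859 and 929 CPM in CC, against 1555, 1552 and 1296 CPM in CB. Fractions did not overlap, with log2 changes of -0.59 in HOMO (SE 0.12, edgeR adjusted p = 0.0131) and -0.69 in WT (SE 0.094, adjusted p = 0.000598). Cdca3, which promotes the degradation of Wee1, averaged 65.4 CPM in HOMO CC and 119 in HOMO CB, and 64.1 in WT CC and 146 in WT CB. Cdca2 (Repo-Man), a targeting subunit of protein phosphatase 1 at chromosomes, averaged 122 CPM in HOMO CC and 180.1 in HOMO CB, and 128 in WT CC and 181 in WT CB.

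**Figure D2:**
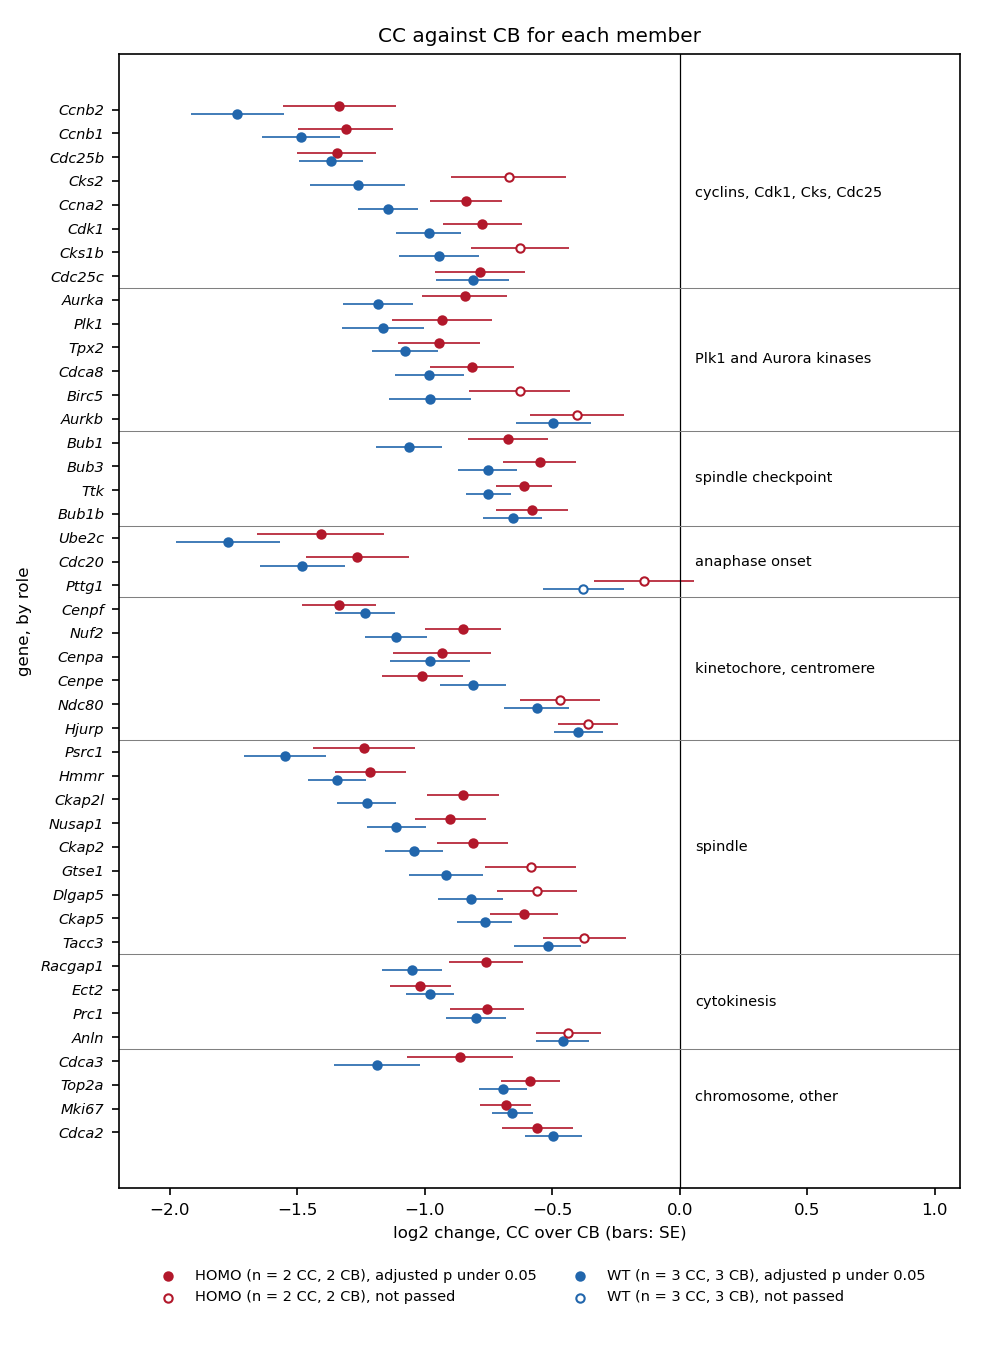
Log2 change of CC over CB (x axis) for each of the 44 genes (y axis, by role), red for HOMO (2 CC and 2 CB libraries) and blue for WT (3 and 3), with bars of 1 SE. Filled points passed an adjusted p of 0.05 in edgeR and open points did not, and all points lie left of 0.

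Per kilobase of gene model, the scale on which genes can be set beside each other, the order of levels was led by Mki67 (440 CPM per kb in HOMO CB and 388 in WT CB) and Top2a (180.4 in HOMO CB and 163 in WT CB). Cdc25b followed at 101 in HOMO CB and 114 in WT CB. Next came Hjurp (76.5) and Cdc20 (72.2) in HOMO CB, and Cdc20 (95.9) and Ccnb2 (81.3) in WT CB. The lowest were Cdc25c (9.41 in HOMO CB and 9.50 in WT CB), Pttg1 (5.10 and 6.23) and Psrc1 (5.11 and 5.69). In CC, Mki67 stood at 274 CPM per kb in HOMO and 246 in WT, and Psrc1 at 2.18 and 1.94.

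The promoters of these genes share sequence elements that the choice of genes did not use. The cell cycle genes homology region (CHR, letters TTTGAA) is bound by the MuvB core of the DREAM and MYB-MuvB complexes, and the CCAAT box (letters CCAAT) by NF-Y. RefSeq promoters (GRCm38.p6, which is mm10, 250 bases before to 50 after the start) were matched for 38 of the 44 genes, and both strands were searched. For each gene only the first promoter listed was used, so a motif at another start would be missed. The count over all promoters was not limited in this way. TTTGAA was found in 26 of the 38 (68.4%), beside 12.2% of 10263 promoters of genes tested and 17.9% of all 32851 promoters. CCAAT was found in 31 of the 38 (81.6%), beside 39.2% and 37.4%, and both together in 24 of the 38 (63.2%), beside 5.14% and 6.95%. Matches of the 2 motifs can share an end letter where they adjoin, and neither holds the other. Of the 26 with TTTGAA, 24 (92.3%) had it within 50 bases of the start, beside 308 of the 1252 promoters of genes tested that hold it (24.6%). These are matches of letters, not sites shown to be bound.

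Stretches from 120 bases before the start to 30 after it are shown for the 4 genes with the lowest log2 change in WT that had a promoter, and then for the 4 with the highest. Each runs 5′ to 3′ on the gene's strand in mm10, with capitals for TTTGAA and CCAAT or their reverse complements.
Ube2c (chr2:164769809-164769958, plus strand): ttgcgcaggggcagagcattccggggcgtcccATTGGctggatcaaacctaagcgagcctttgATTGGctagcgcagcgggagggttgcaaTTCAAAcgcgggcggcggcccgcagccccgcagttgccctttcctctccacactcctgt
Ccnb2 (chr9:70421525-70421674, minus strand): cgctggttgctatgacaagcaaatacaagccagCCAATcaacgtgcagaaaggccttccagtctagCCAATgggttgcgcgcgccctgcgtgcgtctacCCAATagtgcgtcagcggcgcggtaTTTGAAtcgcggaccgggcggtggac
Psrc1 (chr3:108383684-108383833, plus strand): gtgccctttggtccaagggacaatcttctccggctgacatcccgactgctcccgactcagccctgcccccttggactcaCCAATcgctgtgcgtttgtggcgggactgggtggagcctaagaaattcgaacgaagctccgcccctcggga
Ccnb1 (chr13:100786457-100786606, minus strand): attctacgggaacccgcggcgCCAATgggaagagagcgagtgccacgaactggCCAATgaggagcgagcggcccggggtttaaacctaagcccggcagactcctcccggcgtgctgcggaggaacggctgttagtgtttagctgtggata
Tacc3 (chr5:33658008-33658157, plus strand): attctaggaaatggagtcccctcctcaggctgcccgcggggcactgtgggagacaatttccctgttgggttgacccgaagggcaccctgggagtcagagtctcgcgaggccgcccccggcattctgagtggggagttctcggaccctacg
Anln (chr9:22389177-22389326, minus strand): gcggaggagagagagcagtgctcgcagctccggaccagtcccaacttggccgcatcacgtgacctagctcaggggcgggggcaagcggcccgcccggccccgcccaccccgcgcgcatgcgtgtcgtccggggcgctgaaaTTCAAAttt
Hjurp (chr1:88277550-88277699, minus strand): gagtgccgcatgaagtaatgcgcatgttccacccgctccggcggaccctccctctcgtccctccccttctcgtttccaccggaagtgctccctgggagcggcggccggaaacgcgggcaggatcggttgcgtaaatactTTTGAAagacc
Pttg1 (chr11:43425952-43426101, minus strand): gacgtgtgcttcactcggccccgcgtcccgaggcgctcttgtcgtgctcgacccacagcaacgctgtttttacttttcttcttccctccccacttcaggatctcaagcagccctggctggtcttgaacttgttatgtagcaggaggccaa
Among the 4 with the lowest estimates, all hold CCAAT, while Ube2c and Ccnb2 hold TTTGAA and Psrc1 and Ccnb1 do not hold those letters in the window. Among the 4 with the highest, Hjurp and Anln hold TTTGAA close to the start, the CCAAT of Hjurp lies before the stretch shown, and Tacc3 and Pttg1 hold neither. Over all 38 genes, the median log2 change in WT was -0.98 for the 26 with TTTGAA and -1.09 for the 12 without. It was -1.04 for the 31 with CCAAT and -0.56 for the 7 without, which were Nuf2, Nusap1, Tacc3, Anln, Pttg1, Birc5 and Ndc80. In HOMO the medians were -0.79 with and -0.76 without TTTGAA, and -0.82 with and -0.47 without CCAAT. These medians are a description and were not tested.

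Related genes outside the 44 were read from 4 lists. Of all genes tested, 2.98% were called lower and 2.46% higher in HOMO, and 12.3% and 11.6% in WT. Of 32 other mitotic regulators, 11 fell in HOMO (median log2 change -0.44), and in WT 22 fell and 1 rose (median -0.55). Aspm, a spindle pole protein, changed by -1.26 in HOMO (SE 0.14) and -1.32 in WT (SE 0.12). Cep55, which acts in abscission, changed by -0.999 in HOMO and -1.25 in WT, Depdc1b by -1.06 and -1.24, and G2e3 by -1.14 and -1.10. The exception was Mad1l1, the checkpoint protein Mad1, with a log2 change of 0.57 in WT (SE 0.18, edgeR adjusted p = 0.0381), at 85, 79.3 and 46.5 CPM in WT CC, against 46.4, 48.2 and 48.1 CPM in WT CB. WT CC 1 and WT CC 2 were above the CB libraries, and WT CC 3 was not. Those 2 libraries also held the most macrophage RNA, and its part in this difference was not tested. Without them, which leaves 1 WT CC library, the log2 change was -0.03. The call was lost in 17 of 24 alternative settings. Its estimate in HOMO was 0.04 (edgeR adjusted p = 0.952), with 47.6 ± 1.95 CPM in HOMO CC and 46.1 ± 1.52 CPM in HOMO CB (SD, n = 2 each).

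Of 31 other kinetochore and centromere genes, 4 fell in HOMO (median -0.26) and 14 in WT (median -0.35). Knl1, the platform for Bub1 at kinetochores, changed by -0.80 in HOMO and -0.89 in WT. Cenpl changed by -0.60 in HOMO and -0.84 in WT, and Ska3 by -0.56 and -0.78. Of 14 APC/C subunits, 0 fell in HOMO by edgeR (1 at an unadjusted p under 0.05, median -0.19) and 4 in WT (median -0.31), namely Cdc27 (-0.74), Anapc2 (-0.47), Anapc4 (-0.40) and Cdc23 (-0.34). All 14 estimates of the subunits in WT lay above those of their co-activator Cdc20 and their partner Ube2c. Of 40 genes of DNA replication, 1 fell and 1 rose in HOMO (median -0.02), and 13 fell in WT (median -0.21). Dbf4, the activator of Cdc7 kinase, fell in both (-0.62 in HOMO and -0.69 in WT), and Orc1, an origin-binding protein, rose in HOMO (0.53, edgeR adjusted p = 0.0491), a call lost in 10 of 24 alternative settings. In WT, Rpa3 fell by 0.81 on the log2 scale, Mcm4 by 0.63 and Rrm1 by 0.54. The counts of these 4 lists moved with the libraries used, and so did those over all genes tested. With all libraries, 495 of 16596 genes fell in HOMO and 2048 of 16596 in WT. Without both WT libraries numbered 3, 24 other mitotic regulators, 14 other kinetochore genes, 5 APC/C subunits and 5 replication genes fell in HOMO, where 2091 of 16088 genes tested did. In WT, 26, 20, 14 and 23 fell in that fit, where 3839 of 16088 did. Without both WT libraries numbered 2, the lists had 11, 3, 0 and 1 lower in HOMO, where 401 of 16304 genes were. In WT they had 14, 4, 1 and 1, where 622 of 16304 were. Fits that leave 1 HOMO library in a group gave fewer other mitotic regulators and kinetochore genes in HOMO still. TTTGAA was found in 42.3% of matched promoters of the other kinetochore genes, in 41.7% for the other mitotic regulators, in 15.4% for the APC/C subunits and in 18.2% for the replication genes. CCAAT was found in 69.2% for the other kinetochore genes, in 70.8% for the other mitotic regulators, in 30.8% for the APC/C subunits and in 63.6% for the replication genes.

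**Figure D3:**
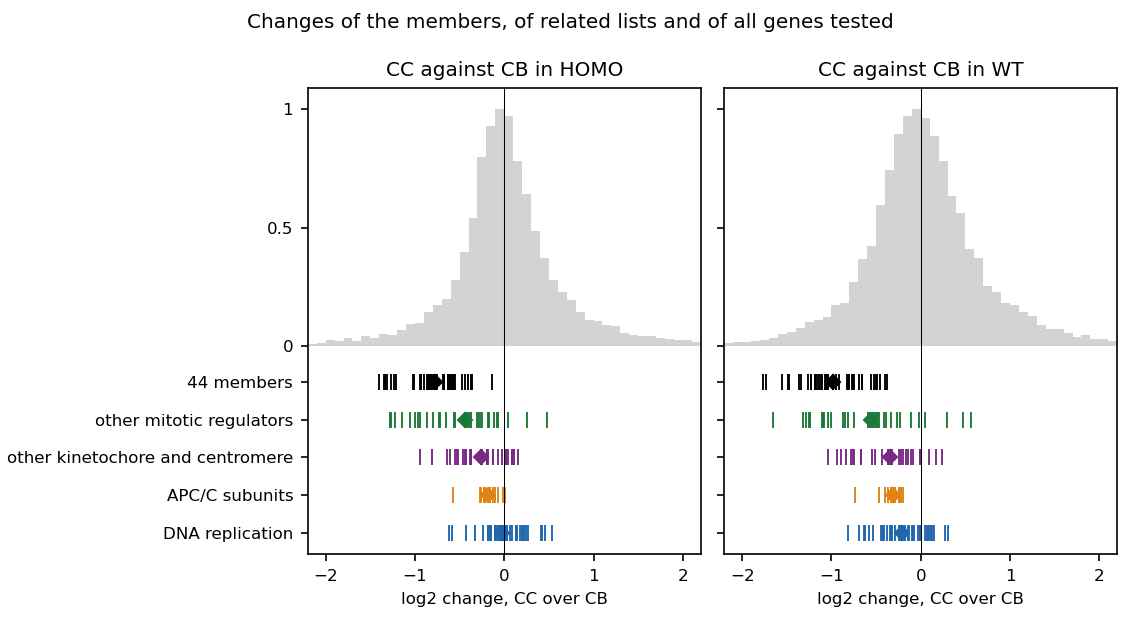
Log2 change of CC over CB (x axis) in HOMO (left) and WT (right). Grey bars count all 16596 genes tested per 0.1, relative to the tallest bar, and the ticks below are the genes of each list with a diamond at the median, which lies farthest left for the 44 members (-0.78 in HOMO and -0.98 in WT).

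Genotypes were then compared within each fraction. In CC, none of the 44 genes was called between HOMO and WT by edgeR, as for 0.0% of the genes tested, while 9 had an unadjusted p under 0.05 and DESeq2 called 2 (Bub1 and Nusap1, higher), where it called 2.56% of all genes with an adjusted p higher and 3.26% lower. The median log2 change of the 44 was 0.12, beside -0.03 over all genes tested, and 33 of 44 estimates lay above 0. In CB, none of the 44 was called by edgeR, where 0.0241% of the genes tested were called, 1 had an unadjusted p under 0.05 (Cdc20) and DESeq2 called 0, where it called 1.13% of all genes higher and 1.16% lower. The median there was -0.07, beside -0.04 over all genes tested, and 16 of 44 estimates lay above 0.

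Both HOMO CC libraries lay above all 3 WT CC libraries for 17 of the 44 genes, where 17.7% of all genes tested did, and below all 3 for 2, where 17.4% did. The 2 were Cdc25b and Tacc3. In CB, 9 genes lay above in both HOMO libraries, where 18.8% of all genes tested did, and 1 lay below (Pttg1), where 16.4% did. The 9, a share of the 44 near that of all genes tested, were Bub1, Ttk, Cenpf, Nusap1, Ckap5, Ect2, Anln, Top2a and Mki67. Their groups were apart in CC too except for Cenpf. With an offset for GC content in each library, the CB estimates of Bub1 (-0.09) and Ect2 (-0.02) lay below 0. In CC that of Ect2 did (-0.10), as did that of Cenpf (-0.02). The others of the 9 stayed above 0. Nusap1 had the smallest p in CC, with 125 and 139.8 CPM in HOMO, against 95.3, 94 and 99.3 CPM in WT (log2 change 0.46, SE 0.13, edgeR adjusted p = 0.135). In CB it had 237 and 257 CPM in HOMO, against 217, 234 and 173 CPM in WT (0.25, SE 0.12, edgeR adjusted p = 0.432). The groups did not overlap in either fraction, and neither estimate passed. Bub1 followed in CC (0.49, SE 0.14, edgeR adjusted p = 0.141), then Ckap2l (0.39, SE 0.13, adjusted p = 0.167) and Ttk (0.30, SE 0.10, adjusted p = 0.168), all with HOMO above WT in every library. In CB the smallest p-values were those of Cdc20 (-0.41, edgeR adjusted p = 0.392), Anln (0.25, adjusted p = 0.4), Tacc3 (-0.31, adjusted p = 0.423) and Nusap1.

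The genotype differences moved with the GC content of the transcripts. Across the 44 genes, the log2 change of HOMO over WT had a Spearman correlation with GC content of -0.63 in CC and -0.81 in CB (n = 44 genes that share the same libraries), beside -0.40 and -0.49 over all genes tested. Genes low in GC such as Bub1 (41.0%), Nusap1 (41.8%) and Ect2 (40.2%) had estimates above 0 in both fractions. Those high in GC such as Cdc20 (55.6%) and Tacc3 (52.7%) had estimates below 0. With an offset for GC content in each library the correlations were 0.096 in CC and -0.17 in CB. The offset is fitted to the trend with GC content in these same libraries, so weaker correlations are built in and test nothing. The change of CC over CB had correlations with GC content of 0.002 in HOMO and -0.11 in WT, beside 0.20 and 0.17 over all genes tested. With the offset they were -0.26 and -0.33 for the 44 genes. The genotype differences also moved with gene length, with correlations of 0.15 in CC and 0.70 in CB, and of -0.30 and 0.53 with the GC offset. For the change of CC over CB, correlations with length were 0.19 in HOMO and 0.44 in WT, and 0.29 and 0.51 with the offset. The part of GC content and length in these differences was not tested further.

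**Figure D4:**
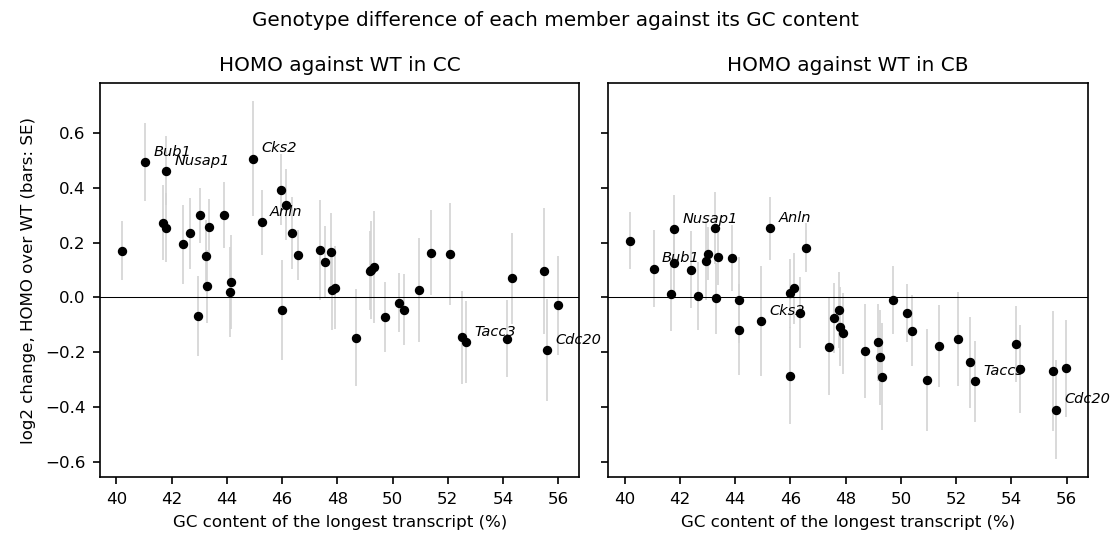
Log2 change of HOMO over WT (y axis, bars of 1 SE) against the GC content of the longest transcript in percent (x axis) for the 44 genes, in CC (left) and CB (right). Genes with little GC lie higher than genes with much GC in both fractions, with Spearman correlations of -0.63 in CC and -0.81 in CB.

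WT CB 3 stood apart from the other WT CB libraries. It had the lowest level of the 3 WT CB libraries for 41 of the 44 genes, with a median log2 ratio of -0.40 to the mean of the others. It lay below both HOMO CB libraries for 36 genes, whereas WT CB 1 and WT CB 2 lay above both for 29 and 31. WT CC 3 was not shifted in 1 direction in this way, with a median log2 ratio of 0.024 to the others. It had the lowest level of the 3 WT CC libraries for 19 genes and the highest for 18. It was thus at an extreme more often than WT CC 1 (lowest for 9, highest for 18) or WT CC 2 (16 and 8). Without WT CC 3 alone, edgeR called 1218 of 16354 genes higher and 1206 lower in HOMO CC, against 0 with all libraries. Fits without WT number 3 compare HOMO with WT numbers 1 and 2 alone. In each fraction those 2 had lower sums of neutrophil and T cell markers than WT number 3 and both HOMO libraries. The part of this in the calls was not tested. Without both WT libraries numbered 3, 13 genes were called higher and 2 lower in HOMO CC, where 16.5% and 14.8% of all genes tested were. The 13 were Ccna2, Cks2, Bub1, Ttk, Nuf2, Hmmr, Nusap1, Ckap2, Ckap2l, Ckap5, Anln, Racgap1 and Top2a, and the 2 were Cdc25b and Aurkb. In HOMO CB, 3 were then called higher and 16 lower, where 15.3% and 15.1% of all genes tested were. The 3 were Ect2, Anln and Mki67, and the 16 lower ones included Tacc3, Plk1, Aurkb, Birc5, Cdc25b, Cdca3, Cdc20 and Ube2c. With the GC offset as well, 6 were called higher and 1 lower in CC (Ccna2, Cks2, Bub1, Ube2c, Ckap2l and Ckap5 higher, Prc1 lower), where 10.7% and 11.4% of all genes tested were. In CB, 1 was called higher (Anln) and 5 lower (Birc5, Cdca8, Nuf2, Tacc3 and Prc1), where 10.5% and 5.93% were. Without WT numbers 1 and 2, on the other hand, 5 were called higher in CC (Birc5, Ndc80, Nusap1, Ckap2l and Top2a) and 6 in CB (Ndc80, Nuf2, Nusap1, Ckap2l, Top2a and Mki67), where 2.15% and 2.05% of all genes tested were, and none was called lower, where 1.81% in CC and 2.01% in CB were. The median in CB was then 0.16, against -0.07 with all libraries. That fit has 1 WT library left in each fraction, which is assumed to vary like the others. The CB median also lay above 0 without HOMO CB 2 (0.023), without WT CB 2 (0.017) and without both WT libraries numbered 2 (0.017), so its sign depended on the libraries of both genotypes.

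**Figure D5:**
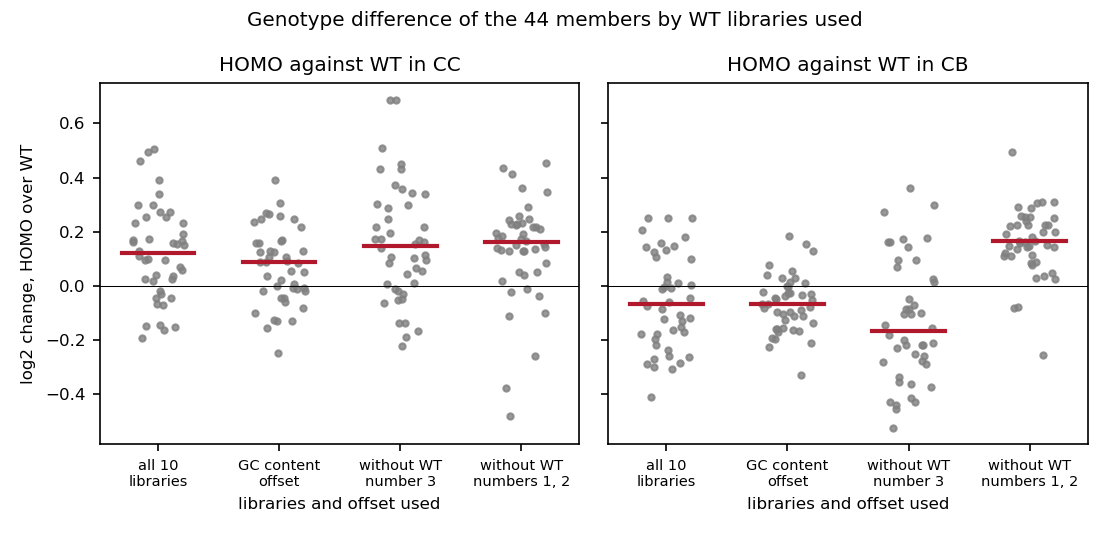
Log2 change of HOMO over WT (y axis) for each of the 44 genes (grey points, spread sideways for legibility) in CC (left) and CB (right), with all 10 libraries, with a GC content offset, without WT number 3 and without WT numbers 1 and 2. Red bars are medians, which in CB lie below 0 in the settings that include WT numbers 1 and 2 and above 0 in the one without them.

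The interaction asks whether the change of CC over CB differed between HOMO and WT. None of the 44 genes was called by edgeR, as for 0.0% of all genes tested, none had an unadjusted p under 0.05, and DESeq2 called 0. In the related lists the estimate lay above 0 for 39 of 40 replication genes (median 0.19) and 12 of 14 APC/C subunits (0.16). It did so for 25 of 31 other kinetochore genes (0.12) and 22 of 32 other mitotic regulators (0.08). A lean above 0 was thus not particular to the 44. Among the 44 it lay above 0 for 39 (median 0.19, beside -0.0047 over all genes tested), a less negative estimate in HOMO. It lay below 0 for Cenpe, Cenpf, Cdca2, Ect2 and Mki67. Those with the smallest p were Ckap2l (0.38, SE 0.18), Cks2 (0.59, SE 0.29), Bub1 (0.39, SE 0.20) and Ccna2 (0.31, SE 0.18), with edgeR adjusted p = 1 for each. Without WT number 3, 11 were called above 0 and none below, where 5.04% and 3.94% of all genes tested were. They were Ckap2l, Bub1, Nuf2, Ccna2, Birc5, Cks2, Racgap1, Bub3, Cks1b, Ube2c and Nusap1. Without WT numbers 1 and 2, 0 were called and 17 of 44 estimates lay above 0, so the balance of signs turned with the WT libraries too.

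Counting limits touch a few genes. The strand setting is not given in the sources used here, and 11 of the 44 genes share exon bases with a gene on the other strand. The share was largest for Ube2c, where 22.8% of its length lies over Tnnc2, and reached 12.7% for Cdc25c, 12.5% for Ccna2 and 11.1% for Prc1. Ccnb1 has 4 near-identical copies elsewhere in the genome and Cks2 has 3, and Mki67 has 1, all with mean counts of at most 6.3 per library, so their counts are uncertain to the extent that reads were split among them.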

How the data were processed

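Per the labels' protocols, RNA was depleted of ribosomal RNA and made into libraries with the KAPA RNA HyperPrep kit, with no molecular identifiers named. The authors deposited raw read counts per gene for 10 libraries. Tools listed by the submitters' processing notes are STAR, featureCounts of Subread, FastQC and R 4.2.1, with mm10 as the genome. Neither the strand setting nor the handling of multiply matching reads is given in the sources used here. Groups came from titles. The HOMO columns carry numbers 2 and 3 where titles carry 1 and 2, so they were assigned to groups only. Their headers use the same numbers in CC and CB. HOMO libraries were not paired by these numbers, and such a pairing was not tested. Gene symbols came from GENCODE M21, whose coordinates matched for 54673 of 54673 identifiers found there, and promoter sequences from RefSeq.

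Low genes were removed by filterByExpr (edgeR 4.0.16, at minimum counts of 10 and totals of 15), leaving 16596, and TMM factors scaled the libraries. The 4 group means were fitted to all 10 libraries (R 4.3.3), and contrasts were tested with the robust quasi-likelihood method of edgeR. Adjusted p-values are Benjamini-Hochberg values over all genes tested, called under 0.05. Biological variation was 23.1% (common coefficient), and each SE is the log2 change divided by the root of F. The steps were run on simulated counts with the same spread for all genes. These had no paired or outlying libraries and no trend with GC content, so such features were not covered. Alternatives were DESeq2 1.42.0, other scaling, no filter, other library sets, a GC content offset and a replicate block. Libraries of a group differed by more than sampling noise (chi-square per degree of freedom 4.14 to 80.7), so none was counted as a duplicate.

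Same-numbered WT libraries deviated together (r = 0.301, 0.426 and 0.436 over 8805 genes, against at most 0.278 for different numbers), so the WT numbers were taken to pair them, from the data and not from a label. The members and lists were chosen with earlier results of these data known. Full statistics were given to the 2 members with the smallest p of each role in WT and to members that did not pass, and to the 4 with the smallest p between genotypes. Other genes were named after their values were seen. One gene's result is not reported here.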

Additional observations from a re-analysis of the deposited data

How the results depend on the processing

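The 44 estimates for CC against CB lay below 0 in all 25 settings in both genotypes. In WT, 30 members passed in every setting, and in HOMO 5 did (Ccnb1, Cdc25b, Cenpf, Ect2 and Hmmr). Counts in WT ran from 36 to 44. Fits that pair the WT libraries by a replicate block called 43 lower in WT, 42 in HOMO and 0 for the interaction. Without a GC offset, that block called 3056 of 16596 genes tested lower in WT and 1249 in HOMO, and 0 for the interaction. No paired fit of HOMO against WT was possible, because no label pairs a HOMO library with a WT library. The HOMO fractions were not paired in any fit. Leaving out 1 library, or both WT libraries of a number, gave the most lower in HOMO (43) without WT number 3, where 2091 of 16088 genes tested were. The fewest came where 1 HOMO library was left in a group. For the interaction it gave 0 to 11, where at most 811 of 16088 genes tested were above 0 and 634 below. For HOMO against WT it gave 0 to 2 lower and 0 to 13 higher in CC, with a median of 0.036 to 0.21. In CB it gave 0 to 16 lower and 0 to 3 higher. The highest of these counts came without WT number 3, where 14.8% to 16.5% of all genes tested were called in each direction. For HOMO CC, DESeq2 called 2 higher, where it called 2.56% of all genes with an adjusted p. The fit without a low-count filter called 4 higher, where it called 622 of 29279 genes higher and 692 lower. Without WT numbers 1 and 2, 5 were higher in CC and 6 in CB, with a CB median of 0.16 and a WT median for CC against CB of -0.73. The following alternatives were chosen after seeing the data. With the GC offset and without WT numbers 1 and 2, the median of HOMO against WT in CB was 0.11, and the WT median was -0.62. With the GC offset and without WT number 3, 1 was lower and 6 higher in HOMO CC, where 11.4% and 10.7% of all genes tested were. In HOMO CB, 5 were lower and 1 higher, where 5.93% and 10.5% were. The interaction was passed by 8, all above 0, where 632 of 16088 genes tested passed above 0 and 934 below. The HOMO median for CC against CB was -0.66 with the GC offset (planned), -0.66 with it and the replicate block, and -0.66 with it and without WT number 3. Counts over all genes tested moved with the settings too. Those lower in WT were 522 of 15973 without both WT libraries numbered 1, and 3839 of 16088 without both numbered 3. Those lower in HOMO were 328 and 2091 in the same fits. The causes were not tested. A fit of the groups compared alone cannot give the interaction. Library sizes of 9954006 to 67625110 counts and 2 HOMO libraries per fraction limit the precision, and the PCR reads are not independent molecules.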
